A study of Mus musculus with 8 samples.

Results

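The data are the wild-type arm of a mouse heart RNA-seq experiment: 2 libraries from wild-type hearts after TAC were set against 2 from wild-type hearts after sham surgery. Every gene with 0.5 FPKM or more in at least 2 of the study's 8 libraries was kept, which left 14817 of 54532 listed genes. FPKM are fragments counted on a gene divided by its length in kilobases and by a library size. Levels of different genes can thus be compared per length. In the deposited values the library size is not the library's total of reads. TAC commonly stands for transverse aortic constriction, which narrows the aortic arch and makes the left ventricle pump against a higher pressure; a sham operation leaves the aorta as it is. All mice were of strain C57BL/6, with genotype wild type or Piezo1-Cko, and each genotype was given sham or TAC, 2 libraries per group. Piezo1 encodes a cation channel opened by membrane tension. The labels give no time after surgery, age, sex or heart chamber, and do not describe the Piezo1-Cko allele, neither the exons it removes nor the cells. Nor do they state that the libraries of a group are different animals, and p-values therefore cover the spread among these samples, which may be technical.

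A heart under pressure overload is known to thicken. Cardiomyocytes enlarge and switch on genes of the fetal heart, among them natriuretic peptides. Fibroblasts, endothelial cells and macrophages divide and lay down matrix, and the energy supply moves away from fatty acid oxidation. Bulk heart RNA mixes all these cells, so fewer cells of a type and less RNA per cell cannot be told apart in any value below.

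In wild type 648 genes (4.37% of those tested) were higher under TAC and 968 (6.53%) lower at an adjusted p under 0.05, and 4695 had an unadjusted p under 0.05. The test was limma's, with Benjamini-Hochberg adjustment over the 14817 genes. Folds were computed on log2(FPKM + 0.5), so they are too small for genes at low levels. The fold was 2 or more for 318 of the higher and 354 of the lower genes, and 4 or more for 60 and 27. The median log2 fold change was 0.99 among the higher genes and -0.89 among the lower. No called gene had overlapping groups; over all genes, both TAC libraries lay above both sham libraries for 30.1% and below for 30.2%. The median sham mean was 2.60 FPKM among the higher genes, 21.3 FPKM among the lower and 3.65 FPKM over all genes tested.

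The number of calls rested on single libraries. Most calls of the mitosis, DNA replication, collagen and hypertrophy lists below were lost without WT TAC replicate 1 or either WT sham library. Without WT sham replicate 1, 40 genes were higher and 43 lower; without WT sham replicate 2, 17 and 8; without WT TAC replicate 1, 38 and 15; and without WT TAC replicate 2, 462 and 566. Leaving out Cko sham replicate 1 or 2, which enter through the shared estimate of the spread, left 72 and 50 or 87 and 72. The genes that passed whichever of the 8 libraries was left out numbered 12 higher (0.081%) and 4 lower (0.027%). Those higher were Mki67, Top2a, Tpx2, Kif11, Nusap1 and Cep55 of cell division, Col4a1, Col4a2, Nid1 and Papln of the matrix, the taurine transporter gene Slc6a6 and the pseudogene Gm49326. Those lower were Gapdh, Ano10, Slc27a1 and Gm22574. Of 203 named genes that passed, 15 are among these 16, and each of the others lost its call in at least 1 of those fits.

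The scale also set the balance of directions. Of the calls, 40.1% were higher on the deposited scale, 70.6% (1445 higher, 602 lower) when mitochondrially encoded genes were left out of the scaling, and 78.6% (2119 and 576) when recovered reads were scaled to their totals and fitted with limma-voom in place of limma on log2 FPKM. With limma-voom and the library sizes behind the FPKM, 43.1% were higher (872 and 1152). The first 2 of these alternatives, called the rescalings below, moved the median log2 fold change of all genes from 0.01 to 0.17 and 0.24. The library sizes behind the FPKM differed by surgery in both genotypes. They were 0.886 to 0.945 times the recovered reads in the sham libraries and 1.02 to 1.10 times in the TAC libraries. List counts and medians are given on the deposited scale. Where a rescaling moved a count by over 1.5 times, its counts under both follow, in the order given here. Beside them stand the calls over all genes under the rescalings: 1445 of 14781 and 2119 of 14817 higher, 602 and 576 lower.

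The 8 libraries held 15574769 to 17313084 reads, recovered from the FPKM steps, of which 17.6% to 24.4% were mitochondrially encoded. The FPKM of immunoglobulin genes summed to 773 in WT TAC replicate 1 and to 17.0 to 71.5 in the other 7 libraries. The clock gene Arntl was at 3.96 and 4.02 FPKM in the replicates numbered 1 of WT sham and WT TAC, and at 0.796 and 1.39 in those numbered 2. In Piezo1-Cko, Arntl was at 3.89 and 1.04 FPKM in the sham libraries and 0.375 and 0.377 in the TAC libraries. Both Piezo1-Cko TAC libraries thus lay below every other library. The part of these differences in the results below was not tested.

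**Figure D1:**
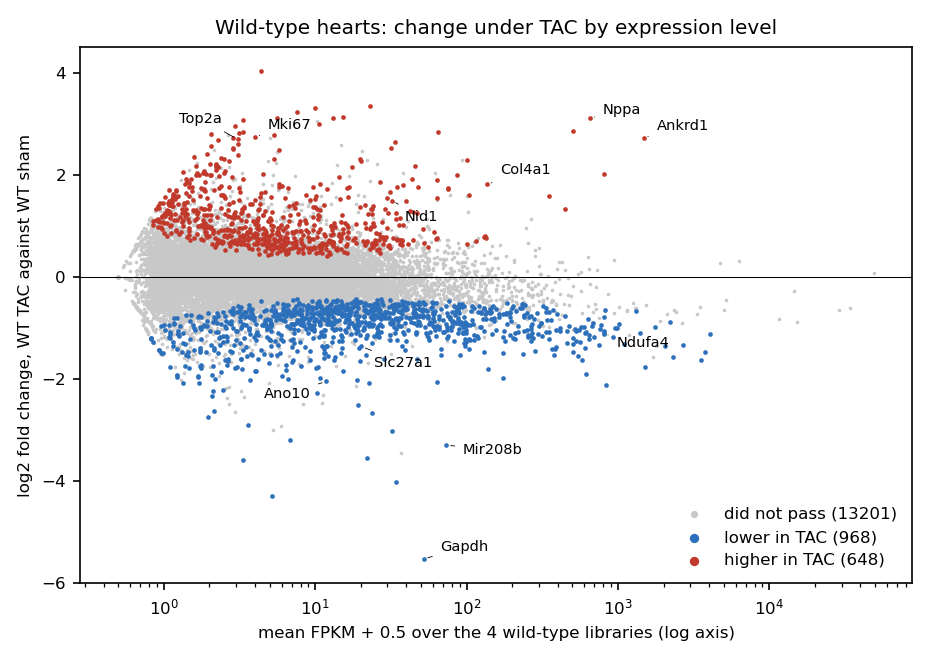
Each point is 1 of 14817 genes, with the mean FPKM + 0.5 of the 4 wild-type libraries on a log x axis and the log2 fold change of WT TAC against WT sham on the y axis. Red points passed as higher (648) and blue points as lower (968); the share of blue points grows with the level, and Gapdh is the lowest point on the y axis.

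Cell division genes rose together. Of 34 mitosis and cytokinesis genes, 32 rose and 0 fell, with a median log2 fold change of 2.06 against 0.01 over all genes, and all 34 had both TAC libraries above both sham libraries. Mki67 (ENSMUSG00000031004, chromosome 7, 135689784 to 135716361, minus strand), which encodes the Ki-67 protein that coats chromosomes of dividing cells, was at 0.503 and 0.574 FPKM in the sham libraries and 7.01 and 5.997 in the TAC libraries. The sham values were close to the filter's minimum and the TAC values close to each other, a 6.73-fold rise (log2 2.75, SE 0.210, limma adjusted p = 0.00867). Top2a (ENSMUSG00000020914, chromosome 11, 98992943 to 99024189, minus strand), a topoisomerase that untangles sister chromatids, was at 0.336 and 0.281 FPKM in the sham libraries and 5.71 and 3.95 in the TAC libraries, 6.51-fold higher (log2 2.70, SE 0.190, limma adjusted p = 0.00827). The added 0.5 FPKM makes these folds small: by limma-voom on recovered reads, which adds less, the median of the list was 3.86, and 3.63 with the library sizes behind the FPKM, with 32 rising in both. The values of Top2a rest on 43 and 36 reads under sham and 958 and 629 under TAC.

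The spindle motor gene Kif11 rose from 0.204 and 0.380 to 3.51 and 3.47 FPKM (limma adjusted p = 0.00952), and Tpx2, which targets Aurora A to the spindle, rose from 0.316 and 0.362 to 4.76 and 3.94 FPKM (limma adjusted p = 0.00867). Nusap1, a microtubule binder of the spindle, rose from 0.329 and 0.243 to 3.59 and 2.69 FPKM, and Cep55, which acts at the midbody in the last step of cell separation, rose from 0.304 and 0.203 to 2.63 and 2.45 FPKM (limma adjusted p = 0.00867). In each of these the replicates of a group lay far closer to each other than to the other group. The kinase gene Cdk1 rose from 0.385 and 0.300 to 6.44 and 3.32 FPKM (6.12-fold) and its partner cyclins Ccna2 from 0.241 and 0.328 to 6.78 and 3.91 FPKM and Ccnb1 from 0.134 and 0.0334 to 4.93 and 2.08 FPKM. Ube2c, a ubiquitin-conjugating enzyme of mitotic exit, rose from 0.460 and 0.651 to 13.9 and 5.36 FPKM and Cks2 from 1.32 and 1.02 to 25.6 and 9.91 FPKM, with the higher value of both in WT TAC replicate 1.

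The promoters of the mitosis genes that passed whichever library was left out are shown because genes of this list are known to share CCAAT boxes, bound by NF-Y, and the cell cycle genes homology region (CHR). The 150 bases before the RefSeq start (GRCm38.p6) are given 5′ to 3′ in the direction of transcription, with CCAAT and TTTGAA, on either strand, in capitals. They are from chr7:135716380-135716529 (minus strand), chr11:99024190-99024339 (minus strand), chr19:37376232-37376381 (plus strand), chr2:119618148-119618297 (plus strand) and chr19:38054891-38055040 (plus strand). The RefSeq promoters used here hold no entry for Tpx2.
Mki67: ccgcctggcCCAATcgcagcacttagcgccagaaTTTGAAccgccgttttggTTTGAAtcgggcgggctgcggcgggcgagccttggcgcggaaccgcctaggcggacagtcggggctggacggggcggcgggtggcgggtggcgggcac
Top2a: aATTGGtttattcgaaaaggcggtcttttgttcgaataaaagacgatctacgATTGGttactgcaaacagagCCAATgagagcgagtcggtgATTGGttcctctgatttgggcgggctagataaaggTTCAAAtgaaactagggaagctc
Kif11: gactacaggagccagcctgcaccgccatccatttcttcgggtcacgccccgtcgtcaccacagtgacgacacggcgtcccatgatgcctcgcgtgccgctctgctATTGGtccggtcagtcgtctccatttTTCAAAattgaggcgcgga
Nusap1: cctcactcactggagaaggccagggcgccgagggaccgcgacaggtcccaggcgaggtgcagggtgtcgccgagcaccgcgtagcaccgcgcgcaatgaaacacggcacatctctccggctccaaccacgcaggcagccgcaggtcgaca
Cep55: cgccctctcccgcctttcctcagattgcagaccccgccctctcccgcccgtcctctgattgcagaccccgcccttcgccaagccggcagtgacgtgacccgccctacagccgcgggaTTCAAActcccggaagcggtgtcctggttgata
Top2a holds 4 CCAAT matches and 1 TTTGAA match in this window, Mki67 1 and 2, Kif11 1 and 1, Cep55 0 and 1, and Nusap1 none of either.

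Over the 250 bases before the start, CCAAT was found on either strand in 21 of the 29 mitosis promoters matched (72.4%), against 33.8% of all 32851 promoters and 36.3% of the 10216 tested genes with a promoter. TTTGAA was in 9 of 29 (31.0%), against 15.99% and 10.5%. Both were in 8 of 29 (27.6%), against 5.55% and 4.05%. The E2F site TTCCCGC was in 8 of 27 DNA replication promoters (29.6%), in 0 of 29 mitosis promoters, in 3.82% of all promoters and in 6.98% of those of tested genes. The other E2F form searched, TTGGCGC, was in 3 of 27 (11.1%) and 3 of 29 (10.3%), against 1.97% and 3.53%. These are matches of letters, with no test and no reading of binding.

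Of 34 genes of DNA replication and nucleotide supply, 16 rose and 0 fell, with a median of 0.86. The replicative helicase genes Mcm5 (from 1.18 and 1.08 to 4.64 and 3.69 FPKM), Mcm3 (from 2.19 and 2.03 to 5.24 and 4.49 FPKM) and Mcm6 (from 2.88 and 3.14 to 7.08 and 5.998 FPKM) rose by 1.51, 1.04 and 1.00 on the log2 scale. Uhrf1, which maintains DNA methylation behind the fork, rose 4.81-fold, from 0.413 and 0.414 to 4.696 and 3.22 FPKM (limma adjusted p = 0.00993). Rrm2, a subunit of ribonucleotide reductase, rose from 0.762 and 0.534 to 22.6 and 4.56 FPKM, with the value of WT TAC replicate 1 far above that of replicate 2 (log2 3.24, 2.15 to 4.34 with 1 library left out). The G1 cyclin gene Ccnd1 rose from 7.99 and 7.304 to 18.9 and 29.4 FPKM, here higher in replicate 2. Which cells divided cannot be read from bulk RNA. Of the markers of other cells, 3 of 25 macrophage markers rose (8 and 10 under the rescalings), 2 of 21 endothelial (4 and 5), and 0 of 14 B and plasma cell, 0 of 9 T and NK cell and 0 of 9 neutrophil and mast cell markers.

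**Figure D2:**
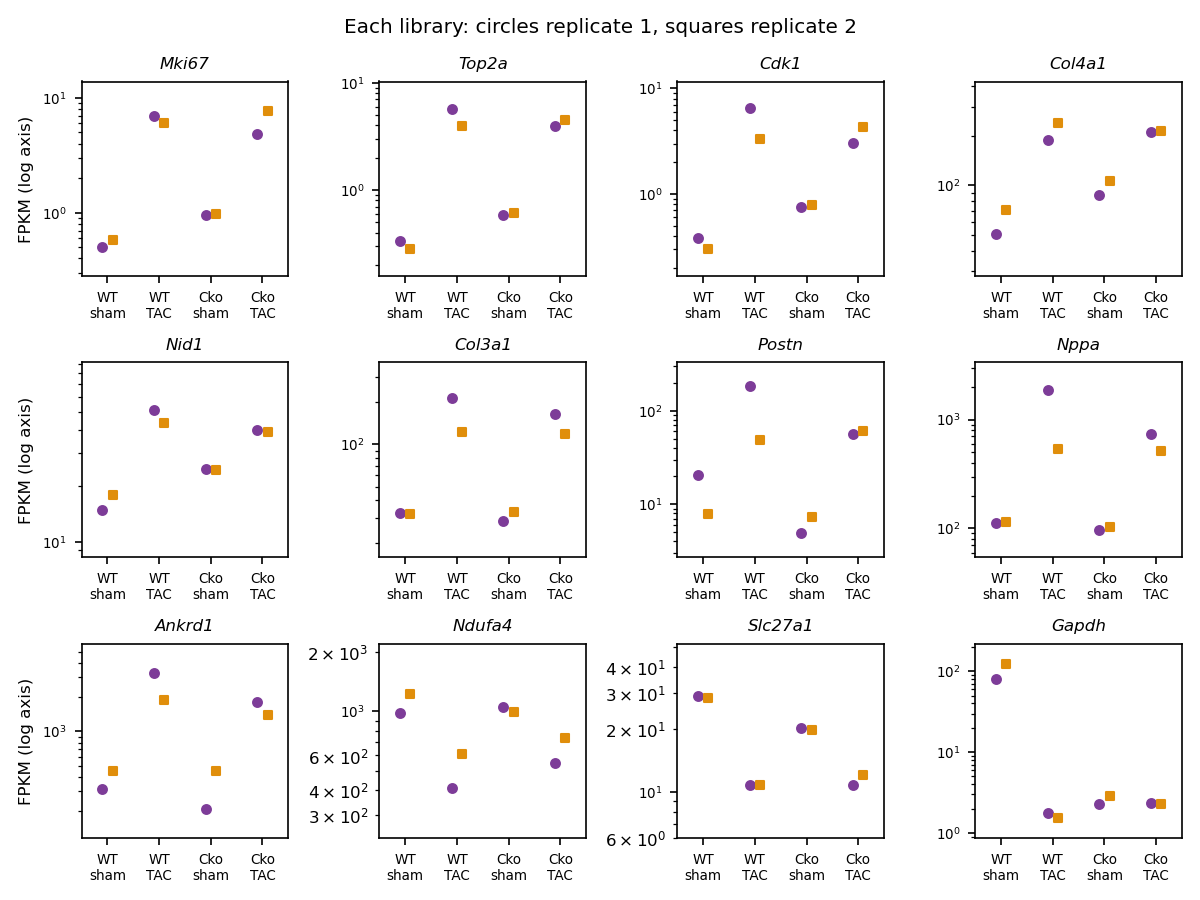
FPKM on a log axis for 12 genes in every library, with circles for replicate 1 and squares for replicate 2 of each group. Mki67, Top2a, Col4a1 and Nid1 are higher in both TAC groups than in both sham groups, Postn and Nppa are highest in WT TAC replicate 1, and Gapdh is high only in the 2 WT sham libraries.

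Part of the matrix genes rose. Of 21 collagen genes 11 rose and 0 fell (median log2 1.44), and of 28 matrix glycoprotein genes 12 rose and 0 fell (median 1.33). Basement membranes are thin sheets under endothelium and around cardiomyocytes, built of type IV collagen, laminins, nidogen and perlecan. Col4a1 (ENSMUSG00000031502, chromosome 8, 11198423 to 11312826, minus strand) and Col4a2 (ENSMUSG00000031503, chromosome 8, 11312805 to 11449287, plus strand) encode the common type IV chains and lie head to head. Col4a1 was at 50.2 and 70.8 FPKM in the sham libraries and 188 and 238 in the TAC libraries (3.52-fold, limma adjusted p = 0.0140) and Col4a2 at 44.7 and 57.2 FPKM in the sham libraries and 149 and 159.8 in the TAC libraries (3.04-fold, limma adjusted p = 0.00993). Every TAC value was well above every sham value for both. Their spans overlap on opposite strands and whether counting used strand is not given in the sources used here, so reads in the overlap cannot be told apart.

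Nid1, which encodes nidogen that links laminin to type IV collagen, rose from 14.9 and 17.8 to 50.9 and 43.2 FPKM (2.83-fold, limma adjusted p = 0.00952). The laminin gene Lamc1 rose from 20.7 and 21.3 to 46.2 and 47.4 FPKM (2.201-fold), Lamb1 by 0.89 on the log2 scale, and Lama4 from 8.23 and 8.53 to 11.2 and 13.8 FPKM (log2 0.54). Hspg2, the perlecan gene, rose from 35.8 and 44.9 to 60.95 and 66.5 FPKM (log2 0.66). Col15a1, a collagen that bridges basement membrane and interstitium, rose from 16.9 and 13.5 to 62.04 and 44.98 FPKM (3.42-fold). In Nid1, Lamc1 and Hspg2 the replicates under TAC were close together. Papln, a papilin related to the ADAMTS proteases, rose from 1.53 and 1.86 to 5.82 and 7.29 FPKM (limma adjusted p = 0.00952). The integrin genes Itga6, Itgb1 and Itga9, receptors for laminin and other matrix, rose from 8.69 and 10.98 to 16.1 and 19.9 FPKM, from 99.01 and 92.2 to 167 and 164 FPKM and from 5.43 and 5.95 to 16.02 and 12.1 FPKM, 3 of 4 risen among 18 integrins (6 and 7 under the rescalings).

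The fibrillar collagen gene Col3a1 was at 32.6 and 32.03 FPKM in the sham libraries and 211 and 123 in the TAC libraries (4.92-fold, limma adjusted p = 0.0169), with near-equal sham values and WT TAC replicate 1 above replicate 2. Col5a1 rose from 7.17 and 6.67 to 31.4 and 19.1 FPKM and Col1a2 from 19.1 and 13.1 to 105 and 35.96 FPKM, whereas Col1a1, the other chain of type I collagen, was at 28.96 and 15.1 FPKM in the sham libraries and 148 and 52.2 in the TAC libraries and missed the threshold (limma adjusted p = 0.0514). Col8a1, a short-chain collagen, rose from 2.03 and 4.89 to 60.5 and 23.1 FPKM (log2 3.36). Fbn1, which forms microfibrils, rose from 5.46 and 6.58 to 40.04 and 25.6 FPKM (5.01-fold), and Fn1, fibronectin, from 5.17 and 5.92 to 51.9 and 15.8 FPKM. Sparc, a collagen-binding protein, rose from 132 and 219 to 586 and 454 FPKM. For most of these WT TAC replicate 1 was the higher: list medians against the sham mean were 2.00 in WT TAC replicate 1 and 1.08 in WT TAC replicate 2 for collagens, and 1.98 in WT TAC replicate 1 and 0.78 in WT TAC replicate 2 for glycoproteins, beside 0.01 and -0.01 for all genes.

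The gap between the TAC libraries was widest in markers of activated fibroblasts. Of 19, 6 rose and 0 fell (6 and 3 rose under the rescalings), with a median of 1.81, and the library medians were 3.11 in WT TAC replicate 1 and 0.45 in WT TAC replicate 2. Postn, periostin, a matricellular protein of activated fibroblasts, was at 20.3 and 7.82 FPKM in the sham libraries and 182 and 48.3 in the TAC libraries (log2 2.84, 1.89 to 3.79 with 1 library left out; limma adjusted p = 0.0404). Lox, which cross-links collagen, rose from 1.24 and 2.83 to 46.4 and 8.99 FPKM. Tnc, tenascin C, and Timp1, an inhibitor of metalloproteinases, rose from 0.407 and 0.535 to 3.66 and 5.74 FPKM and from 8.16 and 9.37 to 45.2 and 61.2 FPKM, and these were higher in replicate 2. Among members that missed the threshold, Cthrc1 was at 0.795 and 0.354 FPKM in the sham libraries and 36.6 and 1.56 in the TAC libraries, Cilp at 14.6 and 6.95 FPKM in the sham libraries and 112 and 16.2 in the TAC libraries and Comp at 26.1 and 1.26 FPKM in the sham libraries and 75.4 and 1.39 in the TAC libraries: each stood high in replicate 1 of TAC, and Comp in replicate 1 of sham as well. Without WT TAC replicate 1 no marker of this list passed, and without WT TAC replicate 2, 12 did.

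Enzymes that act on matrix followed in smaller numbers. Of 18 cross-linking and processing genes 4 rose, Loxl2 from 5.09 and 4.88 to 15.8 and 19.8 FPKM and Tgm2 from 43.5 and 49.3 to 81.7 and 74.8 FPKM among them (8 and 7 under the rescalings). Of 23 proteases and inhibitors 5 rose (9 and 11), including Serpina3n from 7.05 and 10.1 to 72.9 and 42.6 FPKM (6.28-fold) and Adamts4 from 0.409 and 0.176 to 3.64 and 1.87 FPKM. Of 22 TGF-beta and activin genes 3 rose (6 and 9): Fstl1 from 29.4 and 37.1 to 183 and 96.9 FPKM, the receptor gene Tgfbr2 from 9.55 and 7.498 to 17.02 and 15.8 FPKM and Fstl3 from 0.863 and 0.605 to 4.13 and 2.43 FPKM. Ctgf, a textbook target of TGF-beta, was at 26.6 and 58.1 FPKM in the sham libraries and 265 and 53.2 in the TAC libraries and did not pass (limma adjusted p = 0.202), with replicate 2 of TAC inside the sham range. General fibroblast markers did not move one way: of 16, Col1a2 and Mfap5 rose, and Clec3b (from 94.8 and 105 to 25.3 and 46.1 FPKM), Dpep1 and Gsn (from 822 and 585 to 255 and 353 FPKM) fell; under the rescalings 4 and 4 rose.

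**Figure D3:**
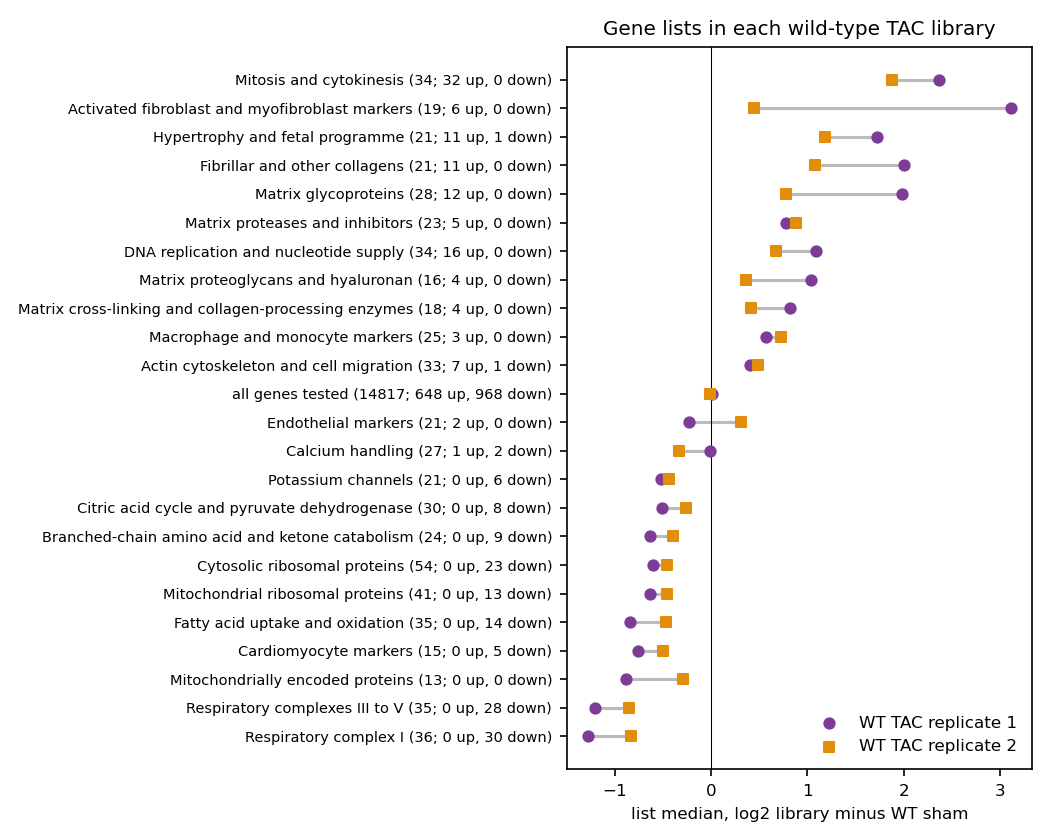
Median log2 difference of each list from the WT sham mean, in WT TAC replicate 1 (circles) and replicate 2 (squares), with tested members and calls in brackets. The activated fibroblast markers have the widest gap (3.11 and 0.45), the respiratory lists lie at -0.83 or below in both libraries, and all genes lie at 0.01 and -0.01.

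Of 21 genes of the hypertrophy and fetal programme, 11 rose and 1 fell, with a median of 1.51. Nppa (ENSMUSG00000041616, chromosome 4, 148000722 to 148002079, plus strand; overlapping Gm13054 on the other strand), the atrial natriuretic peptide gene, was at 112 and 116 FPKM in the sham libraries and 1855 and 532 in the TAC libraries (limma adjusted p = 0.0236). The sham values were near equal, and WT TAC replicate 1 was several times replicate 2, so that the log2 fold change of 3.12 ran 2.22 to 4.02 with 1 library left out. Nppb, the B-type peptide gene, rose from 219 and 428 to 1628 and 951 FPKM (limma adjusted p = 0.0428). Ankrd1, a stretch-responsive protein of the sarcomere's I-band, rose from 312 and 451 to 3269 and 1902 FPKM (6.63-fold), the skeletal actin gene Acta1 from 75.5 and 189 to 745 and 1018 FPKM and Rcan1, a calcineurin target, from 34.9 and 31.1 to 148 and 83.3 FPKM. Nmrk2, a nicotinamide riboside kinase of muscle, rose from 1.100 and 3.88 to 27.2 and 18.6 FPKM and the Xin repeat genes Xirp2 from 29.1 and 32.9 to 123 and 67.5 FPKM and Xirp1 from 27.6 and 23.1 to 48.4 and 37.4 FPKM.

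The myosin switch was uneven. Myh7, the slow beta-myosin heavy chain gene, was at 24.6 and 24.9 FPKM in the sham libraries and 266 and 56.7 in the TAC libraries and missed the threshold (log2 2.29, limma adjusted p = 0.0656), although both TAC values exceeded both sham values. Myh6, the adult alpha chain, was at 2618 and 2264 FPKM in the sham libraries and 1145 and 1563 in the TAC libraries (log2 -0.86, limma adjusted p = 0.0513). Myh7b fell from 14.5 and 16.7 to 3.69 and 4.82 FPKM (3.41-fold), and Mhrt, an RNA antisense to Myh7, fell from 27.00 and 19.4 to 4.69 and 7.65 FPKM; reads of Mhrt and Myh7 cannot be told apart where they overlap if strand was not used. Among 25 sarcomere genes 0 rose and 3 fell, Tnni3 from 2880 and 4007 to 920.3 and 1433 FPKM, Tnnt2 from 1251 and 1294 to 613 and 651 FPKM and Myl2 from 4984 and 6086 to 2133 and 3002 FPKM. Titin (Ttn) was at 22.8 and 19.7 FPKM in the sham libraries and 19.4 and 17.7 in the TAC libraries and did not pass.

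The microRNA genes of the myosin loci are shown because the 77-base gene Mir208b, inside the span of Myh7 on the same strand, was among the largest falls. The mature 3p forms (RefSeq, GRCm38.p6, minus strand, chr14:54975710-54975731 and chr14:54949072-54949093) have the same seed, bases 2 to 8, in capitals.
miR-208b-3p: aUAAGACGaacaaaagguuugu
miR-208a-3p: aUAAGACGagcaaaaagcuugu
Mir208b was at 131 and 134 FPKM in the sham libraries and 8.38 and 19.9 in the TAC libraries (limma adjusted p = 0.0236), from 143 and 146 reads under sham and 12 and 27 under TAC, while reads of its host Myh7 went from 3010 and 3044 to 42649 and 8623. Reads of the small gene thus went down where those of its host went up. Libraries for messenger RNA do not measure the mature microRNA, and Mir208a, in Myh6, had 0 to 11 reads.

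Part of the potassium channel genes fell. Of 21 potassium channel genes 0 rose and 6 fell (median -0.36): Kcnip2 and Kcnd2 encode parts of the transient outward current, and Kcnip2 fell from 51.2 and 55.8 to 22.7 and 18.8 FPKM (2.55-fold, limma adjusted p = 0.0199) while Kcnd2 at 3.09 and 4.21 FPKM in the sham libraries and 1.54 and 1.804 in the TAC libraries missed the threshold. Kcnv2 fell from 2.38 and 3.64 to 0.316 and 0.399 FPKM, the leak channel gene Kcnk3 from 84.8 and 73.6 to 36.8 and 44.5 FPKM, Kcnj3 from 12.8 and 7.72 to 2.28 and 3.61 FPKM and Kcna5 from 23.6 and 25.3 to 10.8 and 15.5 FPKM. Of 27 calcium handling genes 2 fell and 1 rose, shares near the 6.53% and 4.37% of all genes, and 4 and 5 rose under the rescalings. Pln, phospholamban, fell from 853 and 791 to 336 and 434 FPKM and Hrc from 408 and 410.2 to 111 and 201 FPKM, and the plasma membrane pump gene Atp2b4 rose from 2.91 and 3.13 to 4.47 and 6.23 FPKM. The reticulum pump gene Atp2a2 was at 1467 and 1335 FPKM in the sham libraries and 748 and 1049 in the TAC libraries and did not pass (limma adjusted p = 0.0744). The exchanger gene Slc8a1 was at 8.99 and 3.12 FPKM in the sham libraries and 45.8 and 22.2 in the TAC libraries, a log2 fold change of 2.46 that did not pass either. Piezo1 itself (ENSMUSG00000014444, chromosome 8, 122481698 to 122551329, minus strand; overlapping Ctu2, Gm26497 and Gm20388) rose from 2.35 and 3.09 to 5.38 and 5.83 FPKM (log2 0.93, limma adjusted p = 0.0312).

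Nuclear genes of oxidative phosphorylation mostly fell. Of 36 genes of complex I, the entry point of electrons from NADH, 30 fell and 0 rose (median log2 -1.07), and of 35 genes of complexes III to V, 28 fell and 0 rose (median -1.04). Every one of these genes had a negative log2 fold change. Ndufa13 was at 477 and 642 FPKM in the sham libraries and 190.0 and 240.0 in the TAC libraries (limma adjusted p = 0.0236), Ndufa5 at 801 and 945 FPKM in the sham libraries and 278 and 392.3 in the TAC libraries, and Ndufa4 at 979.6 and 1223 FPKM in the sham libraries and 413 and 613 in the TAC libraries. Of cytochrome oxidase, Cox7c fell from 1220 and 1353 to 514 and 624 FPKM (log2 -1.18, SE 0.179, limma adjusted p = 0.0219), and the muscle forms Cox6a2 from 3597 and 4099 to 1333 and 1745 FPKM and Cox7a1 from 1863 and 2743 to 489 and 894 FPKM. Of ATP synthase, Atp5e fell from 493 and 621 to 168 and 219 FPKM (2.88-fold) and Atp5j from 342 and 354 to 141 and 178 FPKM. In all of these the sham libraries lay above the TAC libraries, with WT TAC replicate 1 the lowest.

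These falls kept their sign under the other scalings. The complex I median was -1.07 on the deposited scale, -0.88 with mitochondrial genes left out of the scaling and -0.84 on recovered reads. Under the last 2, 24 and 30 of 36 were lower. Relative to the median of all genes the complex I median was -1.07, -1.05 and -1.08, a value that rescaling can hardly move. The falls did not keep their calls when a library was removed. When either WT sham library or WT TAC replicate 1 was left out, 0 of 36 passed, and without WT TAC replicate 2, 24 did. The genes made in the mitochondrion did not pass: of 13 mitochondrially encoded protein genes 0 fell (median -0.65, library medians -0.88 in WT TAC replicate 1 and -0.29 in WT TAC replicate 2), with mt-Nd4 the nearest (limma adjusted p = 0.0847). Of 41 mitochondrial ribosomal protein genes 13 fell and 0 rose (median -0.56), Mrpl14 from 122 and 134 to 54.7 and 64.00 FPKM and Mrps28 from 93.9 and 96.3 to 42.3 and 59.3 FPKM among them; under the rescalings 5 and 5 fell (median -0.37 and -0.34). Of 41 genes of mitochondrial biogenesis, import and dynamics 7 fell (2 and 2 under the rescalings), including the nuclear receptor gene Esrra (from 97.1 and 97.7 to 53.95 and 68.2 FPKM) and its muscle cofactor Perm1 (from 68.00 and 79.9 to 50.6 and 52.5 FPKM), a log2 fold change of -0.68 and -0.51.

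Fatty acid oxidation fell in part. Of 35 genes 14 fell and 0 rose (median -0.64). Slc27a1 (ENSMUSG00000031808, chromosome 8, 71568882 to 71587302, plus strand), a long-chain fatty acid transporter, was at 28.8 and 28.4 FPKM in the sham libraries and 10.8 and 10.8 in the TAC libraries, near equal within each group (2.57-fold lower, log2 -1.36, SE 0.107, limma adjusted p = 0.00867). It is the member that passed whichever library was left out. Cpt1b, the muscle carnitine palmitoyltransferase that admits fatty acids to mitochondria, fell from 2.82 and 3.26 to 1.15 and 1.01 FPKM. Its span overlaps Gm44502 on the same strand, and reads in the overlap cannot be told apart. Cpt2 fell from 106 and 102 to 40.4 and 63.1 FPKM, and Etfb, which passes electrons on from acyl-CoA dehydrogenases, from 78.8 and 125 to 17.7 and 31.01 FPKM. Ech1, Acaa2 and Eci1 of the beta-oxidation spiral fell from 879 and 839 to 208 and 371 FPKM, from 695 and 759 to 185 and 367 FPKM and from 371 and 354 to 126 and 207 FPKM, each lowest in WT TAC replicate 1. Lpl, which frees fatty acids from lipoproteins, fell from 664 and 769 to 312 and 375 FPKM. Hadha, at 136 and 118 FPKM in the sham libraries and 72.3 and 97.2 in the TAC libraries, and Fabp3, at 6223 and 6083 FPKM in the sham libraries and 3636 and 4215 in the TAC libraries, did not pass.

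Of 30 genes of the citric acid cycle and pyruvate entry 8 fell and 0 rose, Idh2 from 954 and 1062 to 477 and 574 FPKM, Sdhc from 182 and 159 to 87.8 and 104 FPKM and the pyruvate carrier gene Mpc2 from 66.5 and 71.6 to 29.3 and 41.6 FPKM among them, while citrate synthase (Cs) at 206 and 181 FPKM in the sham libraries and 132 and 166 in the TAC libraries did not pass. Of 24 genes of branched-chain amino acid and ketone catabolism 9 fell and 0 rose (median -0.50), and 5 and 6 fell under the rescalings. Bckdhb, a subunit of the branched-chain ketoacid dehydrogenase, fell from 41.3 and 45.5 to 17.96 and 18.5 FPKM (2.34-fold, limma adjusted p = 0.0107), Bcat2, the mitochondrial transaminase, from 36.8 and 39.4 to 20.4 and 22.9 FPKM and Mccc2 from 24.6 and 24.2 to 11.3 and 13.4 FPKM. The replicates of Bckdhb and Mccc2 were close together. Of 21 triglyceride and lipid droplet genes 5 fell, Plin4 from 32.1 and 36.8 to 17.7 and 20.5 FPKM and Dgat2 from 111 and 159 to 44.7 and 72.2 FPKM among them (3 and 5 under the rescalings).

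Part of the genes of glucose handling fell. Of 32 genes 9 fell and 2 rose, the rises a share near the 4.37% of all genes (3 and 5 rose and 7 and 6 fell under the rescalings), with a median of -0.22 that was -0.03 with mitochondrial genes left out of the scaling and 0.01 on recovered reads. The insulin-responsive transporter gene Slc2a4 fell from 129 and 126 to 49.5 and 72.6 FPKM, the phosphofructokinase gene Pfkm from 243 and 238 to 153 and 163 FPKM, Eno3 from 831 and 954 to 416 and 542 FPKM and Ldhb from 1018 and 1193 to 451 and 582 FPKM. Those that rose were Pfkp from 4.33 and 5.81 to 10.5 and 9.12 FPKM and Pgam1 from 25.6 and 21.6 to 43.5 and 37.1 FPKM. Pfkm and Eno3 are the muscle forms of their enzymes, Pfkp and Pgam1 the forms of other tissues.

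Gapdh (ENSMUSG00000057666, chromosome 6, 125161715 to 125166467, minus strand; overlapping Iffo1 on the other strand), the glycolytic dehydrogenase often used as a reference gene, had the largest fall. It was at 81.1 and 122 FPKM in the sham libraries and 1.77 and 1.55 in the TAC libraries, and at 2.31 and 2.85 in Piezo1-Cko sham and 2.32 and 2.25 in Piezo1-Cko TAC. The 2 WT sham libraries thus stood apart from the other 6, not sham from TAC (46.4-fold lower, log2 -5.54, SE 0.203, limma adjusted p = 0.000255). Reads were 4766 and 7166 in WT sham and 113 to 180 in the other libraries. Other enzymes of the same stretch of glycolysis, Aldoa at 913 and 1108 FPKM in the sham libraries and 616 and 649 in the TAC libraries and Pgk1 at 136 and 139.5 FPKM in the sham libraries and 196 and 162 in the TAC libraries, did not pass. Pseudogenes named for Gapdh had 0 to 2 reads per library, but pseudogenes under other names were not searched, and the part of pseudogene reads was not tested. Whether the fall of Gapdh belongs to the surgery was not tested, and within Piezo1-Cko it had a log2 fold change of -0.14. Gm49326, a 126-base pseudogene, showed the same grouping: 5 and 4 reads in WT sham and 18 to 24 in the other 6 libraries.

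Part of the ribosomal protein genes fell on the deposited scale. Of 54 cytosolic ones 23 fell and 0 rose (median -0.53), with Rps27 from 273 and 281 to 77.8 and 62.4 FPKM (3.96-fold, limma adjusted p = 0.00993), Rps29 from 579.6 and 867 to 269.8 and 297 FPKM and Rpl38 from 357 and 454 to 178 and 192 FPKM. With mitochondrial genes left out of the scaling 11 fell and 1 rose, and on recovered reads 10 and 1, with medians of -0.34 and -0.30. Many have near-identical pseudogenes: 99 genes named Rpl and 66 named Rps of pseudogene type held reads, 10860 to 15213 and 5115 to 7299 per library, so the counts of single members are uncertain. The median level of the cytosolic ribosomal list was 192 FPKM. Of all genes over 100 FPKM 36.1% were lower, with a median of -0.56. The list median of -0.53 was near that value. Of 30 proteasome genes 6 fell, Psmb6 from 96.2 and 113 to 55.3 and 68.7 FPKM among them, and 1 did under each of the same rescalings.

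Level and length moved with these falls. By mean FPKM over the 8 libraries, 1.67% of genes under 1 FPKM were lower, 4.59% of those at 3 to 10, 19.1% of those at 30 to 100 and 36.1% of those over 100, while the share higher ran between 2.83% and 5.06% in every bin. By listed length, 22.7% of protein-coding genes of up to 1000 bases were lower and 1.72% of those over 8000. The median length was 4420 bases among higher genes, 2174 among lower and 3708 over all; it was 1532 for complex I and 1806 for cytosolic ribosomal proteins. Short genes outside the respiratory and ribosomal lists also fell: of 323 of up to 1000 bases, 17.3% were lower, with a median log2 fold change of -0.37. Within the respiratory lists the median was -1.07 for 21 genes of up to 1000 bases, -1.12 for 25 of 1000 to 2000, -0.83 for 17 of 2000 to 4000 and -0.96 for 7 of 4000 to 8000; the 1 gene over 8000 bases was at -0.27 and did not pass. Between the 2 sham libraries, genes over 100 FPKM also differed, by a median of 0.15 (replicate 2 minus replicate 1). The part of length and level in the falls was not tested.

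**Figure D4:**
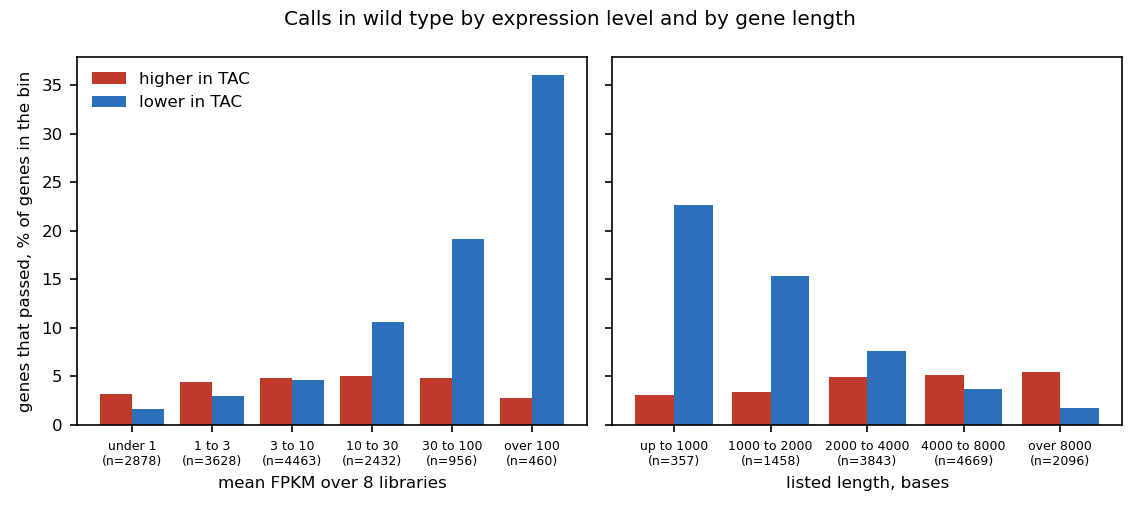
Percent of genes in each bin that passed as higher (red) or lower (blue) in WT TAC, by mean FPKM over the 8 libraries (left) and, for protein-coding genes, by listed length in bases (right). The share lower climbs to 36.1% over 100 FPKM and to 22.7% at up to 1000 bases.

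Part of the markers of cardiomyocytes fell: of 15, 5 fell and 0 rose (median -0.65). Most of these markers lie over 100 FPKM. Of all genes at that level 36.1% were lower, with a median of -0.56, so the count is near that share. The FPKM of the markers summed to 38680 and 41410 FPKM in the sham libraries and 23200 and 28200 in the TAC libraries. The summed level was lower in both TAC libraries. Its members split, with Cox6a2, Tnni3, Myl2, Pln and Tnnt2 lower while Actc1 at 4644 and 3937 FPKM in the sham libraries and 4911 and 5468 in the TAC libraries, Ryr2 at 27.2 and 24.96 FPKM in the sham libraries and 29.2 and 23.03 in the TAC libraries and Actn2 at 374 and 423 FPKM in the sham libraries and 359.6 and 383 in the TAC libraries did not pass. The cardiac regulator genes Hopx and Hand2 fell from 143 and 154 to 38.9 and 77.8 FPKM and from 28.7 and 23.6 to 13.2 and 16.6 FPKM. How far the share of cardiomyocyte RNA enters the mitochondrial falls was not tested.

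The count of vessel and immune genes that passed depended on the scale: 2 of 21 endothelial markers rose (4 and 5 under the rescalings) and 3 of 25 macrophage and monocyte markers (8 and 10). Aplnr, the apelin receptor of endothelial cells, rose from 10.4 and 11.6 to 41.98 and 41.1 FPKM (3.66-fold, limma adjusted p = 0.00952), with near-equal replicates in each group. It and Mecom were the endothelial markers that passed (median 0.00); Pecam1 was at 37.2 and 45.6 FPKM in the sham libraries and 47.9 and 72.8 in the TAC libraries and Cdh5 at 52.9 and 59.2 FPKM in the sham libraries and 74.7 and 115 in the TAC libraries. Nrp2 rose from 4.91 and 4.76 to 8.75 and 13.9 FPKM and Vegfb fell from 234 and 248 to 119.9 and 135 FPKM. The macrophage markers C1qb (from 73.8 and 81.7 to 133 and 112 FPKM), Adgre1 (from 2.76 and 2.68 to 9.85 and 8.07 FPKM) and Cx3cr1 (from 2.11 and 1.03 to 7.24 and 3.66 FPKM) rose. The span of Cx3cr1 overlaps 9 other genes, Xirp1 on the same strand among them, and reads in the overlap cannot be told apart. Ccr2, of recruited monocytes, was at 0.697 and 0.709 FPKM in the sham libraries and 4.51 and 3.503 in the TAC libraries without passing (limma adjusted p = 0.0869). The TNF receptor superfamily gene Tnfrsf12a, for the TWEAK receptor, rose from 30.3 and 37.98 to 133 and 96.04 FPKM (3.300-fold), Tnfrsf1a from 29.2 and 28.9 to 42.7 and 47.1 FPKM and Tnfrsf1b from 3.22 and 3.14 to 9.998 and 6.04 FPKM, while the interleukin-11 receptor gene Il11ra1 fell from 29.3 and 28.99 to 20.6 and 13.9 FPKM. On the deposited scale no member passed among 29 interferon-stimulated genes, 18 genes of MHC and antigen presentation, 25 of ER chaperones and the unfolded protein response, 15 of Notch or 13 of BMP signalling; at an unadjusted p under 0.05 there were 0, 1, 6, 6 and 1 of them. Under the rescalings none of the first 2 lists passed either, and 3 and 6 ER, 4 and 8 Notch and 1 and 2 BMP genes rose. Over all genes, 1445 of 14781 and 2119 of 14817 rose under the rescalings. The BMP counts and the first ER count were near those shares.

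Some cytoskeletal genes outside the sarcomere rose. Of 33 actin cytoskeleton genes 7 rose and 1 fell (median 0.51; 16 and 18 rose under the rescalings), among them Msn from 33.99 and 35.4 to 60.7 and 74.1 FPKM, Anxa1 from 16.8 and 18.1 to 31.5 and 32.6 FPKM and the formin gene Diaph3 from 0.101 and 0.101 to 1.26 and 0.936 FPKM. Of 20 tubulin and microtubule genes 5 rose (7 and 8): Tubb5 from 46.7 and 47.5 to 84.2 and 76.5 FPKM, Stmn1, which destabilises microtubules, from 6.66 and 7.19 to 25.5 and 17.04 FPKM, and Vash1, a tubulin detyrosinase, from 1.95 and 2.495 to 8.71 and 8.98 FPKM. Vcl, vinculin of adhesions and intercalated discs, rose from 2.56 and 1.600 to 8.41 and 8.45 FPKM. Ctnnb1, beta-catenin, rose from 42.6 and 42.4 to 78.3 and 79.4 FPKM (limma adjusted p = 0.0189), with replicates within each group nearly equal.

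Of 26 genes of xenobiotic and ester metabolism 10 fell and 2 rose. Inmt, a methyltransferase, fell from 9.19 and 14.4 to 0.773 and 0.850 FPKM (9.15-fold, limma adjusted p = 0.0180) and the carboxylesterase gene Ces1d from 66.1 and 46.3 to 3.88 and 10.3 FPKM. Gstt1 and Ephx2 fell from 18.3 and 12.6 to 5.700 and 5.49 FPKM and from 107 and 118 to 55.3 and 64.3 FPKM. Aldh1a2, which makes retinoic acid, rose from 1.34 and 1.15 to 6.13 and 10.9 FPKM. Adipocyte markers did not pass in any of 5 tested members. Of 29 genes of serine, one-carbon and amino acid supply 4 rose (6 and 8 under the rescalings), Aldh18a1 (log2 0.95) and Pycr1 from 0.250 and 0.287 to 0.997 and 1.34 FPKM of proline synthesis and the transporter gene Slc38a2 from 21.4 and 20.6 to 40.9 and 32.4 FPKM among them, and Cebpb fell from 45.7 and 44.7 to 25.6 and 19.1 FPKM. Other large falls were Lgals4, a galectin, from 26.5 and 53.5 to 2.299 and 3.25 FPKM, Cytl1 from 56.5 and 25.6 to 4.28 and 7.24 FPKM and Ano10, an anoctamin, from 19.6 and 17.3 to 3.88 and 4.29 FPKM (limma adjusted p = 0.00867).

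The response was set against that of Piezo1-Cko hearts, where 77 genes (0.52%) were higher under TAC and 40 (0.27%) lower. The fold changes of the 2 comparisons share no library, but their p-values share the spread estimated from all 8 libraries, so passing in both is not independent. Of the 648 genes higher in wild type, 621 had a positive log2 fold change in Piezo1-Cko (median 0.64), and 63 passed there; of the 968 lower, 927 had a negative one (median -0.55), and 35 passed. Over all genes, 49.5% were positive in Piezo1-Cko. Mki67 was at 0.960 and 0.980 in Piezo1-Cko sham and 4.88 and 7.703 in Piezo1-Cko TAC, Col4a1 at 87.3 and 106 in Piezo1-Cko sham and 212 and 215 in Piezo1-Cko TAC and Slc27a1 at 20.2 and 19.9 in Piezo1-Cko sham and 10.7 and 11.99 in Piezo1-Cko TAC. The list medians in Piezo1-Cko were 1.53 for mitosis, 1.15 for collagens and -0.70 for complex I.

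The difference between the responses was tested gene by gene, and 3 genes passed (0.0202%). Gapdh differed by -5.40 (wild type minus Piezo1-Cko, log2; limma adjusted p = 0.00350). The others, Gm22574 and Gm22107, are small RNA genes on few reads: Gm22574, 60 bases inside Cox7c on the same strand, had 9 and 7 reads in the WT sham libraries, none in either WT TAC library, 5 and 3 in Piezo1-Cko sham and 10 and 6 in Piezo1-Cko TAC. Gm22107, inside Myh9, had 1 read in each WT sham library and 4 and 3 in Piezo1-Cko TAC. No gene of the mitosis, collagen or respiratory lists passed this test, so none is shown to respond differently in wild type; for Mki67 the difference was 0.57 (SE 0.297, limma adjusted p = 0.916) and for Myh7 1.64 (limma adjusted p = 0.916).

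**Figure D5:**
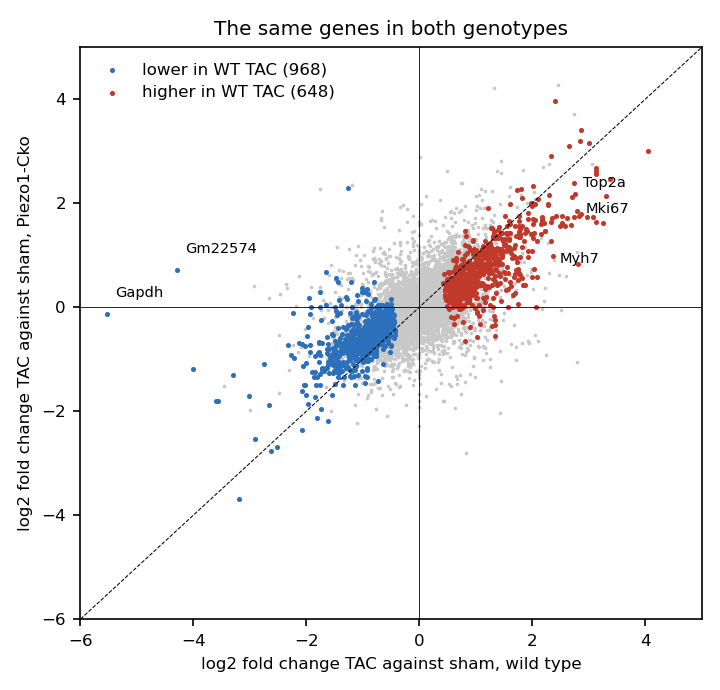
Log2 fold change of TAC against sham in wild type (x axis) and in Piezo1-Cko (y axis) for each tested gene, with genes higher (red, 648) and lower (blue, 968) in wild type and a dashed line of equal change. Most coloured points share the sign of both axes; Gapdh and Gm22574 lie far from the line.

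Within wild type the TAC libraries differed in the size of the response. Against the sham mean, the median of the higher genes was 1.05 in WT TAC replicate 1 and 0.93 in replicate 2, and that of the lower genes -0.96 and -0.79. The change was larger in replicate 1 for 425 of 648 and 745 of 968. These genes were called from the same libraries. The library size behind the FPKM was 1.09 times the recovered reads in WT TAC replicate 1 and 1.02 times in replicate 2. The part of either in these counts was not tested. Over all genes, the log2 difference between replicates had an SD of 0.491 in sham and 0.497 in TAC, beside an SD of 0.585 for the log2 fold changes. The genes called lower made up 21.1% and 26.6% of all FPKM in the sham libraries and 14.2% and 15.5% in the TAC libraries; those called higher made up 0.907% and 1.09%, and 4.88% and 3.08%.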

How the data were processed

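Total RNA of the hearts (Trizol) went into NEBNext Ultra libraries, per the labels' protocols. Per the submitters' processing notes, featureCounts 1.5.0-p3, Bowtie 0.12.2 and CASAVA 1.8 were among the tools and mm10 and mm8 the builds; their roles, strandedness, filters and scaling are not given in the sources used here. The authors deposited 1 table whose values are FPKM, per the values: multiplied by gene length, 100% of values come to whole reads (tolerance 0.01) at 1 step size for each library. The steps gave 15574769 to 17313084 reads per library. Of 54409 gene identifiers shared with GENCODE M21 (GRCm38), 98.3% had the same coordinates, and coordinates are as deposited.

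Groups follow the labels' genotype and treatment. Log2(FPKM + 0.5) of the 14817 genes with at least 0.5 FPKM in at least 2 of 8 libraries was fitted with limma 3.58.1 in R 4.3.3, 1 term per group over all 8 libraries (4 residual degrees of freedom), with intensity trend and robust moderation, and two-sided p-values were adjusted by Benjamini-Hochberg with a threshold of 0.05. TAC was set against sham in wild type and in Piezo1-Cko, and the difference between these was tested. Genes just inside and outside the filter had a second-highest value of 0.5001 and 0.49999 FPKM. The fit was tested on simulated data.

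The gene groups, lists and comparisons were chosen with earlier results of these data known. Named genes are 12 textbook genes; the 15 largest passing rises and falls with a wild-type mean of at least 1 FPKM and groups that do not overlap, predicted genes, pseudogenes and immunoglobulin or T-cell receptor segments left out; the 3 passing members with the smallest p per list and direction or, where none passed, the member nearest to passing; the 10 with the smallest p in each direction among those passing whichever library was left out; and the 5 with the smallest p for the difference between genotypes. Other members of a list were named after their values were seen. Lists are described by counts and medians, with no set test. Promoters and microRNAs are from RefSeq (GRCm38.p6); 10216 of the tested genes had a promoter. Alternatives were other pseudocounts, filters, scalings, gene types and sample sets, a replicate block, voom on recovered reads, a fold threshold and each library left out; voom with the library sizes behind the FPKM was added after seeing the data. Replicates of a group differed by more than counting noise (chi-square per degree of freedom 18.4 to 47.6), so none was a copy.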

Additional observations from a re-analysis of the deposited data

Results flagged for a closer look

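The TAC response differed between wild type and Piezo1-Cko, by the test of the difference itself, for 3 genes. For Gapdh the wild-type response minus the Piezo1-Cko response was -5.40 on the log2 scale, for Gm22574 -5.01 and for Gm22107 -3.56. Among the 8 libraries, Gapdh stood high in WT sham only. Gm22574 and Gm22107 rest on at most 10 and 4 reads per library. Groups of 2 libraries are too small for a check on single outlying samples.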

How the results depend on the processing

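Against 648 genes higher and 968 lower, there were 139 and 108 with no filter on low values, 1 and 2 in a fit of only the 4 wild-type libraries, 1445 and 602 with mitochondrial genes left out of the scaling, 2119 and 576 by limma-voom on recovered reads, 24 and 6 when tested against a log2 fold change of 0.5, and 0 and 1 without both replicate-1 wild-type libraries. Without trend and robust moderation 628 were lower. With each of the 8 libraries left out in turn, 17 to 744 were higher and 8 to 1009 lower. The difference between genotypes gave 3 genes; it gave 1 with at least 10 reads, with protein-coding genes alone, by limma-voom with either library size and without both replicate-1 wild-type libraries, and 0 to 2 with single libraries left out. With the replicate number as a block, 749 were higher and 1127 lower. Whether the numbers pair the samples cannot be told, because with 2 libraries per group each comparison gives a single correlation. The deviations of WT sham and WT TAC replicates of the same number correlated at 0.19, those of the other pairs of groups at -0.02 to 0.09. No value of a named gene reversed under any of the 23 alternatives, but most of these could not reverse one. Called genes had groups that did not overlap, so leaving out a library or changing the pseudocount keeps the sign of the change. Of 203 named genes that passed, 203 passed again with a pseudocount of 0.1 FPKM or median-of-ratios scaling. In the fit of only the 4 wild-type libraries 2 did. Only 2 libraries per group and 4 residual degrees of freedom limit every call, and a gene with few reads cannot show a small change.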
